A study of Homo sapiens with 2 samples.

Results

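The genes described here are 33 genes of protein folding, quality control and stress signalling in the endoplasmic reticulum (ER), in HCT116, a human colorectal carcinoma cell line. They were chosen by gene symbol, with no threshold on a measured value, and all 33 were found in both libraries, among 23116 RefSeq genes placed at 1 locus. One of them, ERO1L, is given under its current symbol ERO1A. The models of a gene were its RefSeq transcript models and, where there were any, assembled models that share an intron with it. Levels on exons also took in other models that lie on those exons. The control library held 45 RefSeq and 21 assembled models of these genes, and the other library 45 and 15. Of the RefSeq models, 33 in the control library and 35 in the other held fragments.

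Poly(A) RNA was sequenced from 1 control library and 1 library labelled USP49 knockdown, to ask how gene expression differs between them. USP49 is a ubiquitin-specific protease. Per the labels' protocols, both libraries came from HCT116 cells with a tetracycline-inducible knockdown of USP49 (T-Rex system), kept in blasticidin and puromycin, and harvest followed doxycycline by 36 h. The same treatment text stands for both libraries, so whether the RNA control saw doxycycline is not given in the sources used here, nor is whether the line is 1 clone. The series text calls the control wild type. With 1 library per group no difference below has a replicate check, and no test was made.

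The control library held 16381140 fragments and the library labelled knockdown 19964401, a ratio of 1.219, and all levels are FPKM, fragments per kilobase of RefSeq exons scaled to these totals. Intervals are 95% counting intervals and cover counting error only. USP49 stood at 0.907 FPKM (0.665 to 1.21) in the control library and 1.10 (0.859 to 1.40) in the one labelled knockdown, so on its exons it was not lower there and the 2 intervals overlapped. Summed over its models it was 2.88 against 1.10 FPKM, so its direction turns with the measure and the label was not checked by it. Of 8 colorectal epithelial markers, 7 were at 1 FPKM or more in both libraries and VIL1 was listed at 0. None of the 3 blood and 3 endothelial markers reached 1 FPKM, and of 5 mesenchymal markers only COL1A1 did, at 6.89 and 6.56 FPKM. Of 7 markers of professional secretory cells, only SDC1 passed 1 FPKM.

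The ER is where secreted and membrane proteins enter the secretory pathway, fold, gain sugars and form disulfide bonds. When unfolded proteins build up there, the sensors IRE1 (gene ERN1), PERK (gene EIF2AK3) and ATF6 start the unfolded protein response. ATF6 and the spliced product of XBP1 then raise chaperones, oxidoreductases and the machinery of ER-associated degradation (ERAD), while PERK slows translation and raises ATF4. Intestinal epithelium secretes much glycoprotein, above all mucus, and relies on this machinery.

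The 33 ER genes were almost as abundant in one library as in the other. None was higher or lower by 1.2-fold or more on its exons, against 5.88% of the 12080 genes measured, of which 2.11% were higher and 3.77% lower. None passed 2-fold either, as 0.786% of all genes did. The log2 ratio, of the level in the library labelled knockdown plus 1 FPKM over the control level plus 1, ran from -0.16 for ERN1 to 0.21 for HERPUD1. Of the 33 genes 16 lay above 0 and 17 below, with a median log2 ratio of -0.0066, beside a median of -0.0039 over all genes. Within 0.1 of 0 lay 23 of the 33, where 60.4% of all genes lay. All 33 passed the minimum mean of 1 FPKM that genes had to reach. The shares over all genes, here and below, were not matched for level, and counting intervals narrow with more fragments. The median control level was 50.8 FPKM for the 33 genes and 13.8 FPKM for all genes. With a minimum of 5 FPKM, 1.28% of all genes were higher and 2.18% lower by 1.2-fold or more.

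The counting intervals of the 2 levels did not overlap for 5 of the 33 genes, where the same held for 14.3% of all genes. HERPUD1, ERO1A and CANX were higher in the library labelled knockdown, a direction in which 6.92% of all genes stood apart. CALR and P4HB were lower, as 7.38% of all genes were. The interval of the ratio itself left out 1 for 11 of the 33 genes, against 27.1% of all genes. Above 1 were 5 genes, against 13% of all genes, namely HERPUD1, ERO1A, CANX, ATF6 and DERL2. Below 1 were 6, against 14.1%, namely CALR, P4HB, HSP90B1, PDIA4, PDIA3 and PPIB. Together the 33 genes held 0.789% of fragments in the control library and 0.785% in the one labelled knockdown. A bulk level cannot tell fewer cells with a transcript from less transcript per cell.

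**Figure D1:**
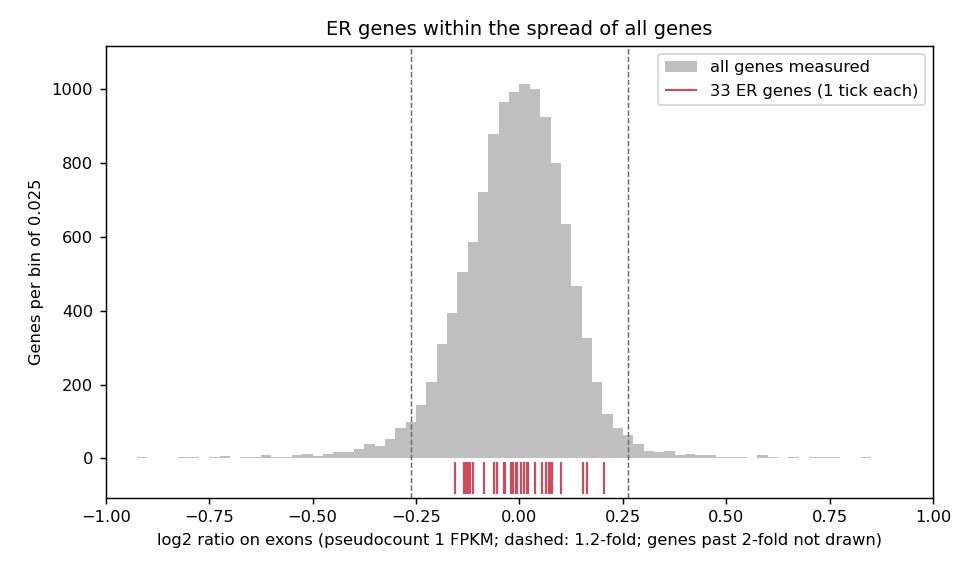
The histogram counts the 12080 genes measured by their log2 ratio on exons (library labelled knockdown over control, bins of 0.025, genes past 2-fold not drawn), and each red tick under it is 1 of the 33 ER genes. All ticks lie between the dashed lines at 1.2-fold, from -0.16 to 0.21.

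The known response elements of the pathway were looked for near the starts of these genes, because ATF6 and XBP1 act through them. The ER stress response element (ERSE) was searched as CCAAT, any 9 bases and CCACG, and ERSE-II as ATTGG, any 1 base and CCACG. The unfolded protein response element (UPRE) was searched as TGACGTGG, and every search was exact and on both strands. Windows ran from 250 bases before to 50 after each RefSeq start (GRCh38.p14), and 31 of the 33 genes had one, all but DERL1 and PDIA3. ERSE was present in 8 of the 31 genes (25.8%), namely HSPA5, HSP90B1, CALR, CANX, CRELD2, PDIA6, SERP1 and XBP1, and in 0.0916% of all 27305 genes with a window (0.0769% of 35116 windows). ERSE-II was present in HERPUD1, HYOU1 and SDF2L1 and in 0.0696% of all genes (0.0541% of windows). UPRE was present in TXNDC5 and in HYOU1, where it overlaps an ERSE-II, and in 0.927% of all genes (0.729% of windows). A match is a run of letters and not a measured binding site. The elements are the known ones of the same pathway for which the 33 genes were listed. Their larger share among these genes is therefore not an independent result. The sequences below carry matches of the major chaperones and lectins, of XBP1 and of the gene with the highest ratio, read 5′ to 3′ on the strand of the gene. A second, proximal ERSE-II of HYOU1, which began 79 bases before the start, is not printed. Capitals mark the fixed letters of the element, or their reverse complement where it lies on the other strand.
HSPA5 ERSE, chr9:125241381-125241419, minus strand: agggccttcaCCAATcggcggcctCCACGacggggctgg
HSP90B1 distal ERSE, chr12:103930206-103930244, plus strand: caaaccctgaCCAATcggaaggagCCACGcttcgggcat
HSP90B1 proximal ERSE, chr12:103930311-103930349, plus strand: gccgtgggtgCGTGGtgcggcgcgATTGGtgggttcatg
CALR ERSE, chr19:12938374-12938412, plus strand: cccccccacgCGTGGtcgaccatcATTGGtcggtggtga
CANX ERSE, chr5:179698768-179698806, plus strand: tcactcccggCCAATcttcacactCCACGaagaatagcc
XBP1 ERSE, chr22:28800593-28800631, minus strand: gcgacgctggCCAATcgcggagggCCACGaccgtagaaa
HERPUD1 ERSE-II, chr16:56932015-56932045, plus strand: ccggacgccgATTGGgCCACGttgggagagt
HYOU1 distal ERSE-II, chr11:119057370-119057400, minus strand: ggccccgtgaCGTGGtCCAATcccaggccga

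The HSPA5 element began 66 bases before the start and that of XBP1 52 bases before it. In CANX the 1 match lies 189 bases before the most distant of its annotated starts, while the distal HSP90B1 element began 194 and the CALR element 225 bases before it. The 11 genes with ERSE or ERSE-II had a median log2 ratio of 0.0041, from -0.13 to 0.21, with 6 above 0 and 5 below. The 20 genes with neither had a median of 0.0016, from -0.16 to 0.16, with 10 on each side of 0. In control the median level was 91.8 FPKM with either element and 29.6 FPKM with neither. In the library labelled knockdown these medians were 90.8 and 31.3 FPKM. The median level was thus higher for genes with an element in both libraries, while the ranges of their ratios overlapped.

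**Figure D2:**
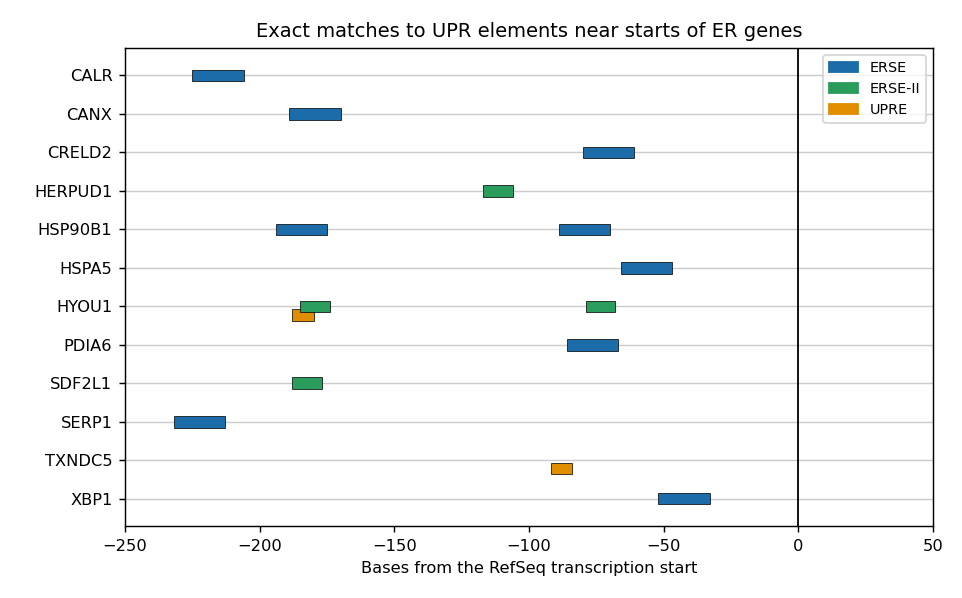
Each bar marks an exact match to ERSE, ERSE-II or UPRE by its distance in bases from the RefSeq start (vertical line), for the 12 ER genes with a match. The CANX match is drawn from the most distant of its annotated starts, and the matches begin between 52 bases (XBP1) and 232 bases (SERP1) before the start.

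The chaperones were abundant and each read slightly lower in the library labelled knockdown. Ratios below are depth-scaled fragments on exons in that library over control, with the exact conditional interval in brackets. HSPA5, the ER Hsp70 BiP that also holds the stress sensors inactive, stood at 113 FPKM (111 to 116) in the control library and 110 (108 to 113) in the one labelled knockdown, a ratio of 0.976 (0.946 to 1.007). HSP90B1, the ER Hsp90, stood at 184 and 177 FPKM, a ratio of 0.963 (0.935 to 0.991). HYOU1, a large Hsp70 that exchanges nucleotide on BiP, stood at 91.8 and 90.8 FPKM, a ratio of 0.989. The 3 log2 ratios lay between -0.05 and -0.02, and the intervals of the 2 levels overlapped for each of the 3 genes.

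The J-domain proteins hand clients to BiP and start its ATP cycle. DNAJB11, which works in the lumen with SDF2L1, stood at 118 FPKM in the control library and 120 in the one labelled knockdown. SDF2L1 itself stood at 57.7 and 59.2 FPKM. DNAJC3, also known as an inhibitor of PERK, stood at 22.5 and 22.4 FPKM. DNAJB9, a cochaperone that feeds ERAD and is widely read as a target of spliced XBP1, was the lowest of the 4 at 9.41 FPKM (8.49 to 10.4) and 9.99 (9.13 to 10.9). No ratio of the 4 was set apart from 1 by its counting interval.

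The lectins and cyclophilin B were the 3 most abundant of the 33 genes. Calreticulin (CALR, chromosome 19 at 12910414 to 12916304, hg18), the soluble lectin that holds glycoproteins while they fold, stood at 551 FPKM (543 to 560) in the control library and 520 (512 to 527) in the one labelled knockdown. Its ratio was 0.942 (0.923 to 0.962). Calnexin (CANX, chromosome 5 at 179058536 to 179091245), its membrane counterpart, stood at 273 FPKM (269 to 276) and 285 (282 to 288), a ratio of 1.045 (1.027 to 1.064). The partners thus lay on opposite sides of 1, each by less than 1.2-fold. PPIB, the prolyl isomerase cyclophilin B, stood at 375 and 359 FPKM, a ratio of 0.957 (0.925 to 0.991). SNX22 shares 516 of the 1028 exonic bases of PPIB, so its level may hold fragments of either gene.

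Oxidative folding held the second highest ratio of the list and the lowest ratio among genes whose intervals lay apart. ERO1A (chromosome 14 at 52178355 to 52232169), the oxidase that recharges protein disulfide isomerases, stood at 36.6 FPKM (35.0 to 38.3) in the control library and 41.1 (39.6 to 42.7) in the one labelled knockdown, a ratio of 1.123 (1.059 to 1.191). P4HB (chromosome 17 at 77394323 to 77411833), the archetypal protein disulfide isomerase and a subunit of collagen prolyl hydroxylase, stood at 107 FPKM (104 to 110) and 97.6 (94.9 to 100.3), a ratio of 0.911 (0.874 to 0.949). Neither pair of intervals overlapped. The ERO1A ratio rests on spreading fragments evenly over each model and counting only the part on RefSeq exons. Its assembled model held 1072 fragments over 3932 bases in the control library and 2407 over 5130 in the one labelled knockdown. In each, 3298 of these bases lay on RefSeq exons. The RefSeq model of ERO1A held 1059 and 1132 fragments. The interval does not cover this dependence on the models. PDIA3, the isomerase that works with calreticulin and calnexin, stood at 34.1 FPKM (32.5 to 35.8) and 31.2 (29.8 to 32.6). Its intervals just touched, and its ratio was 0.915 (0.856 to 0.978).

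The other oxidoreductases were close to equal. PDIA4 stood at 139 and 134 FPKM, PDIA6 at 133 and 134, and TXNDC5 at 137 and 138. PDIA6 shares 1033 exonic bases with ATP6V1C2 and TXNDC5 shares 3409 with its read-through neighbour and BMP6, so these levels may hold fragments of those genes. The secreted products of the stress response went opposite ways within counting error. MANF, a secreted factor that protects cells under ER stress, stood at 96.5 FPKM (91.5 to 101.6) and 102 (97.3 to 107). CRELD2, a secreted protein of the same response, stood at 27.0 FPKM (25 to 29.1) and 24.6 (22.8 to 26.4). Their ratios were 1.057 (0.985 to 1.134) and 0.910 (0.819 to 1.012).

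**Figure D3:**
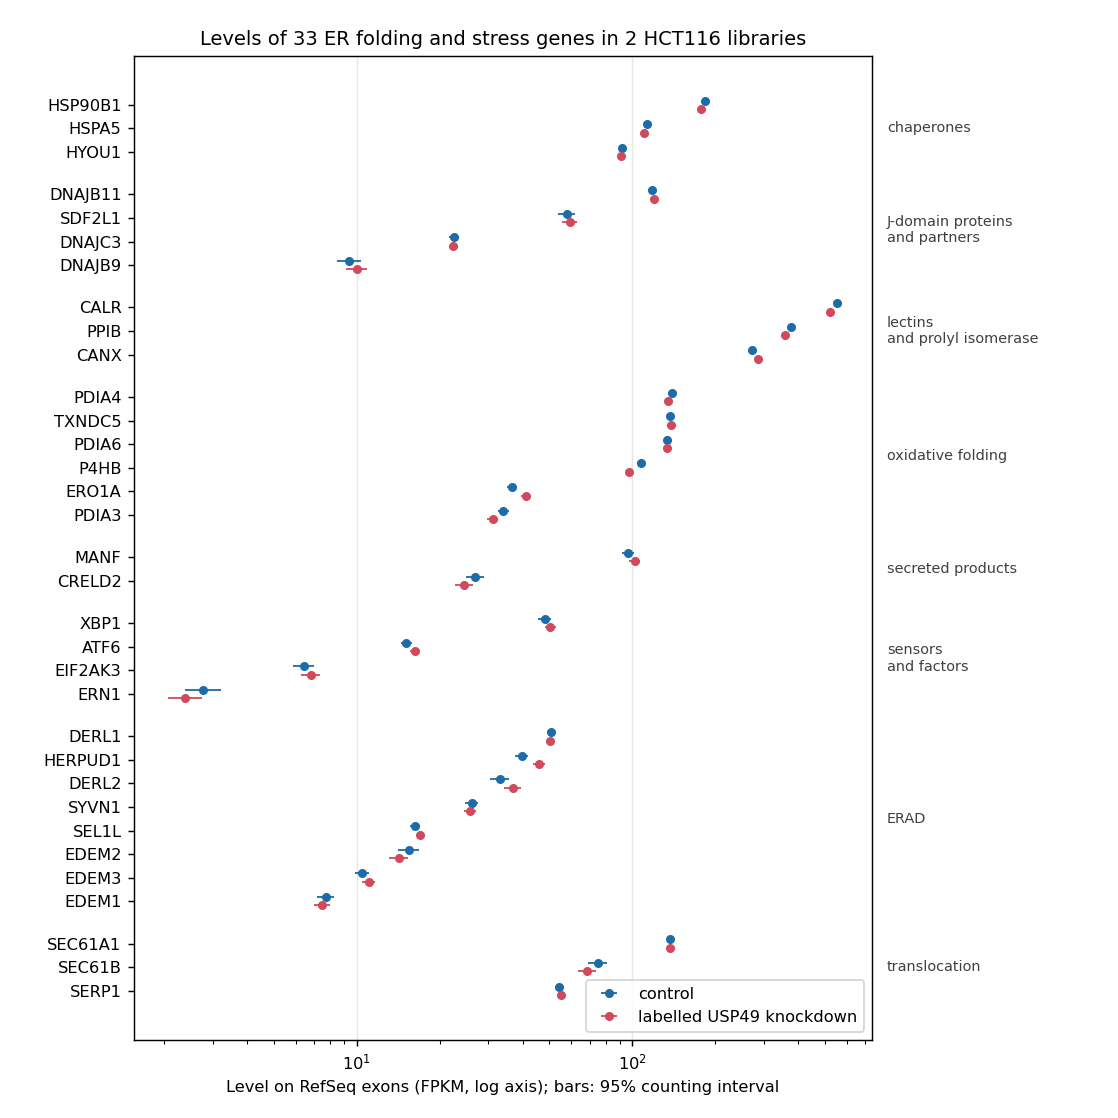
Points give the level of each of the 33 ER genes in FPKM on RefSeq exons (log axis) in the control library and in the one labelled knockdown, grouped by role, with 95% counting intervals as bars. CALR at 551 and 520 FPKM is the highest and ERN1 at 2.78 and 2.39 FPKM the lowest, and paired points lie close together throughout.

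Of the stress sensors, ERN1 and EIF2AK3 were the 2 least abundant of the 33 genes. ERN1, which encodes IRE1, the kinase and endonuclease that cuts XBP1 mRNA, stood at 2.78 FPKM (2.39 to 3.22) from 180 fragments in the control library and 2.39 (2.06 to 2.76) from 189 in the one labelled knockdown. Its ratio of 0.860 had the widest interval of the list, 0.698 to 1.061, and so the difference was not detectable at this depth. EIF2AK3, which encodes PERK, the kinase of the initiation factor eIF2, stood at 6.42 FPKM (5.86 to 7.01) and 6.80 (6.28 to 7.36). ATF6 (chromosome 1 at 160002658 to 160200484), a membrane-bound transcription factor that is cleaved in the Golgi, stood at 15.1 FPKM (14.4 to 15.8) and 16.3 (15.7 to 17.0), a ratio of 1.078 (1.014 to 1.145). ERN1 was thus below the control level while the other two sensors were above it, each within overlapping intervals of the 2 levels.

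XBP1 (chromosome 22 at 27520548 to 27526560), the transcription factor activated by IRE1, stood at 48.0 FPKM (45.5 to 50.6) from 1395 fragments and 50.5 (48.2 to 52.9) from 1787, a ratio of 1.051 (0.979 to 1.128). IRE1 removes 26 bases from its mRNA, and the 2 RefSeq forms of 1820 and 1794 bases differ by that stretch. As the 2 forms are aligned, the stretch lies in exon 4 at chr22:27522112-27522137 (hg18), 43 bases after the start of that exon. The bases gcag stand both just before this stretch and at its end. The 2 forms therefore do not fix its exact ends, and the capitals below mark the aligned gap and not the cut sites of IRE1. The stretch is printed here because the activity of IRE1 is read from it, in capitals with 20 bases on each side, 5′ to 3′ on the minus strand.
XBP1 stretch removed by IRE1: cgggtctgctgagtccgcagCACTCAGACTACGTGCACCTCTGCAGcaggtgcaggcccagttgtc
All 1395 fragments in the control library and all 1787 in the one labelled knockdown were assigned to the form that keeps the stretch, and the form without it was listed at 0 in both. These are estimates of the assembler and not read counts across the junction. Among assembled introns outside RefSeq, 6667 in the control library and 6852 in the one labelled knockdown, the shortest had 71 and 70 bases. Of 41 RefSeq models with an annotated gap of 15 to 40 bases, 11 held fragments in each library. The listed 0 is therefore reported only as a listing, and the spliced share of XBP1 was not measured.

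ERAD returns misfolded proteins to the cytosol for the proteasome. HERPUD1 (chromosome 16 at 55523503 to 55535294), a membrane protein that organises the ligase complex of SYVN1, had the highest ratio of the 33 genes. It stood at 39.7 FPKM (37.5 to 41.9) from 1218 fragments in the control library and 45.9 (43.7 to 48.1) from 1717 in the one labelled knockdown, a ratio of 1.157 (1.074 to 1.246). Its partners in the complex lay nearer 1. SYVN1, the ubiquitin ligase HRD1, stood at 26.2 and 25.8 FPKM, a ratio of 0.985 (0.914 to 1.062). SEL1L, the adaptor that holds SYVN1 in place, stood at 16.3 and 17.0 FPKM, a ratio of 1.042 (0.986 to 1.101).

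The derlins form part of the channel out of the ER. DERL2 stood at 33 FPKM (30.4 to 35.8) and 36.8 (34.3 to 39.4), a ratio of 1.115 (1.001 to 1.243), and DERL1 at 50.8 and 50.2 FPKM. The EDEM proteins trim mannose from misfolded glycoproteins. EDEM1 stood at 7.71 and 7.49 FPKM, EDEM2 at 15.4 and 14.2, and EDEM3 at 10.5 and 11. Of the 8 ERAD genes 4 were above 0 on the log2 scale and 4 below, with a median log2 ratio of 0.02. For HERPUD1 alone among them the intervals of the 2 levels lay apart.

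Proteins enter the ER through the SEC61 channel. SEC61A1, which forms the pore, stood at 137 FPKM in both libraries, from 8082 and 9790 fragments, a ratio of 0.994 (0.965 to 1.024). SEC61B, a small subunit, stood at 74.8 FPKM (69.1 to 80.9) and 68.8 (63.8 to 74.0), and SERP1, a protein bound to the translocon, at 54.3 and 55.0. Models of EIF2A, on the other strand, also crossed the exons of SERP1 in both libraries. The log2 ratio of SERP1 was 0.02 with models of either strand and -0.05 with models of its own strand only. In all, 6 of the 33 genes share exonic bases with another gene, as 18% of all genes do. The order of the 33 levels was nearly the same in both libraries. The rank of 21 genes was the same, that of 31 moved by at most 1 place, and the largest move was 2 places. Of the 32 neighbouring pairs in the control order, 15 had overlapping counting intervals, such as PDIA4, SEC61A1, TXNDC5 and PDIA6, which follow each other between 139 and 133 FPKM. The 4 highest, CALR, PPIB, CANX and HSP90B1, each lay apart from the next. In control 14 of the 33 genes were above the 90th percentile of the genes measured and 5 below their median.

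**Figure D4:**
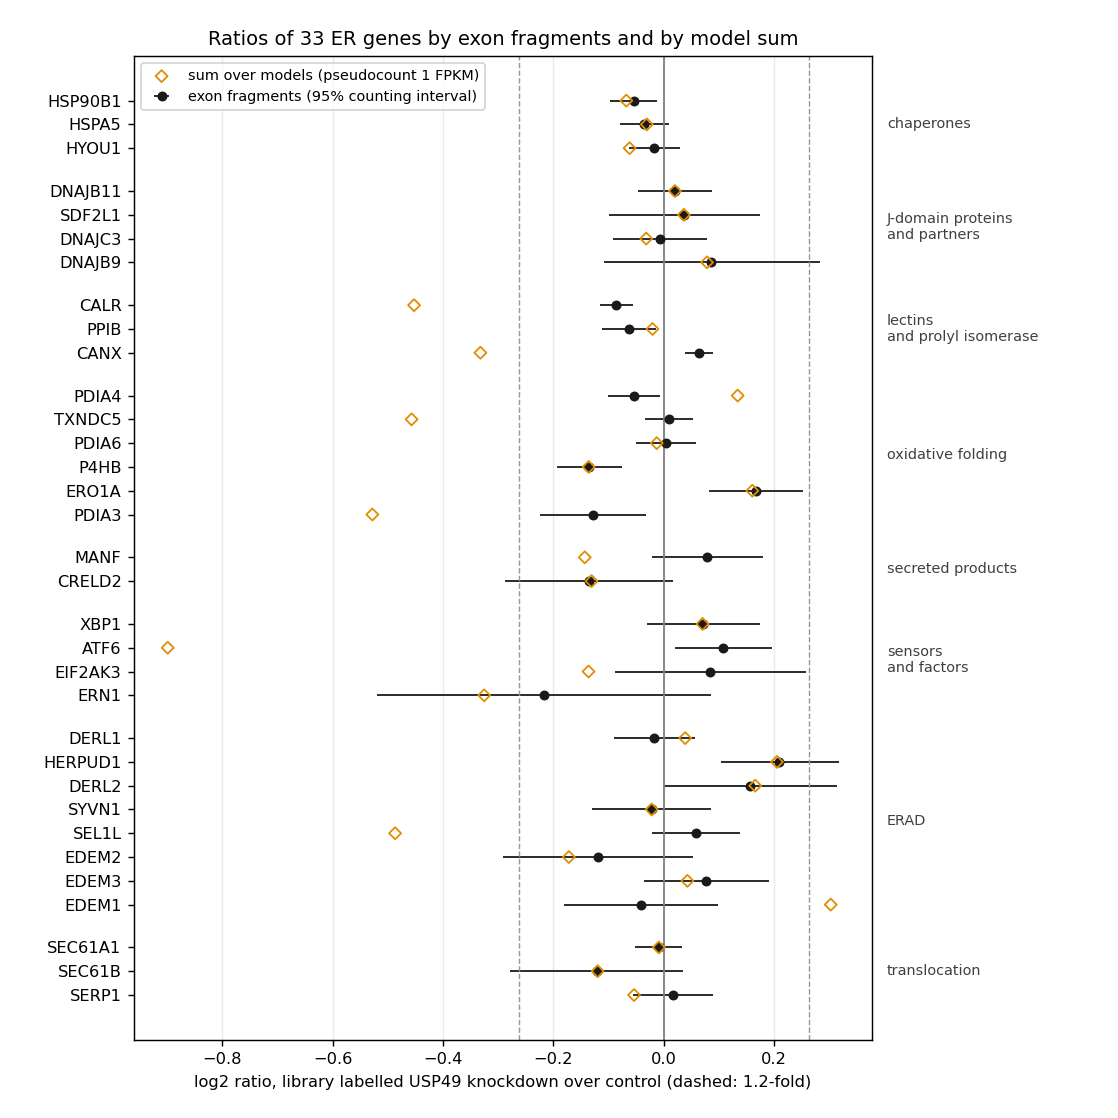
Black points give the log2 ratio of fragments on exons (library labelled knockdown over control, no pseudocount) with its 95% counting interval, and open diamonds the log2 ratio of FPKM summed over the models of each gene. Black points stay within 1.2-fold (dashed lines), while diamonds reach -0.90 for ATF6 and 0.30 for EDEM1.

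Each library was assembled separately, and for some genes the models chosen moved the summed FPKM much more than the fragments. With FPKM summed over models, 8 of the 33 genes passed 1.2-fold, 1 higher and 7 lower, against 9.88% of all genes higher and 11.5% lower. The counting intervals of the sums lay apart for 14 of the 33, against 31.8% of all genes. ATF6 summed to 31.3 FPKM in control and 16.3 in the other library, a log2 ratio of -0.90, while its exons held 1858 fragments in the control library and 2440 in the one labelled knockdown. In control, 799 fragments were placed on an assembled ATF6 model of 2208 bases and 17 exons that ran 18800 bases past the RefSeq 3′ end, and no such model stood in the other library. The PDIA3 sum was 45.4 and 31.2 FPKM, and control alone had an assembled model of 1846 bases, 1208 bases short of the 3′ end, with 832 fragments. On the 3054-base RefSeq model of PDIA3 lay 847 and 1873 fragments.

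The lectins showed the same arrangement. CALR summed to 711 FPKM in the control library and 520 in the one labelled knockdown, and a control model of 767 bases held 3052 of its fragments. CANX summed to 359 and 285 FPKM, a log2 ratio of -0.33 where its exons gave 0.06, and a control model of 1951 bases held 4410 fragments. SEL1L gave -0.49 by the sum and 0.06 on exons, and TXNDC5 gave -0.46 and 0.01. EDEM1 went the other way, at 0.30 by the sum and -0.04 on exons. For TXNDC5 the arrangement was another, as its sum held only a RefSeq form, at 110 and 79.7 FPKM. An assembled model without a gene name was left out of that sum. It held 2448 fragments in the control library and 5002 in the one labelled knockdown. Assembled models carried 26.2% and 46.8% of the TXNDC5 exon fragments. The sign differed between the measures for 11 of the 33 genes. For 9 the measures differed by 0.2 or more, and for 22 by less than 0.1.

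Model ends also differed from RefSeq. For SEL1L, the assembled model with most fragments ended 1472 bases short of the RefSeq 3′ end in the control library and 1446 bases short in the one labelled knockdown. A second control model with 322 fragments ended 14140 bases short of it, and a second model in the other library 1446 bases short. Assembled models carried 77.2% and 89.8% of its exon fragments. All ERN1 fragments lay on assembled models, of which the 22-exon model ran 1890 bases past the RefSeq 3′ end in control and 1861 in the other library. Another ERN1 model, in the library labelled knockdown, held 42.4 fragments and ended 1792 bases short of it. The assembled ERO1A models ran past the RefSeq 3′ end by different lengths, 401 and 1778 bases. HSPA5 had an unspliced model without strand over its whole length in both libraries, of 6485 and 6519 bases with 889 and 1016 fragments, beside 6732 and 8031 on the spliced transcript. Assembled models held 5% or more of the exon fragments of 20 ER genes in the control library and 14 in the one labelled knockdown, which is 60.6% and 42.4% of them, where all genes gave 55.6% and 55.4%. Intron chains, meaning all introns of a model in order, were compared for models with 5% or more of the exon fragments. The set of chains was the same in both libraries for 12 of the 33 genes (36.4%), as for 36.4% of all genes. A shorter model in control only, as for CALR and HYOU1, makes the sets differ. A gene with differing sets therefore need not use other introns.

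**Figure D5:**
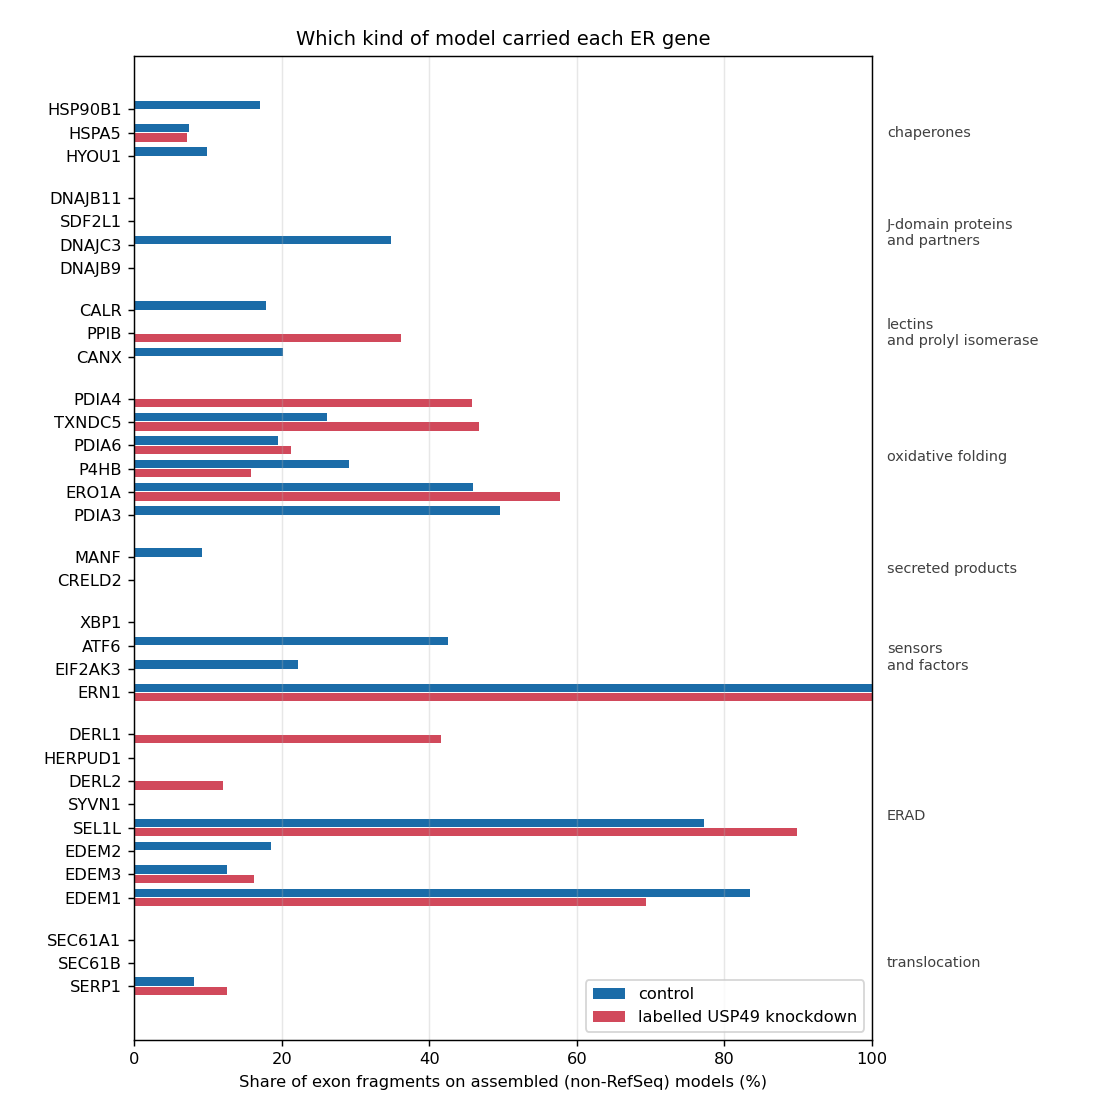
Bars give the percent of exon fragments of each ER gene that lay on assembled models outside RefSeq, in the control library and in the one labelled knockdown. PDIA3, ATF6 and DNAJC3 have a bar in the control library only, PDIA4, DERL1 and PPIB in the one labelled knockdown only, and ERN1 stands at 100% in both.

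Few of the 33 genes had a second RefSeq form with fragments. HYOU1 divided its RefSeq fragments between forms of 4478 and 4602 bases, and the shorter took 59.1% (Clopper-Pearson interval 57.8% to 60.3%) in the control library and 59.7% (58.6% to 60.8%) in the one labelled knockdown. A HERPUD1 form 1919 bases long, beside the main form of 1922 bases, was given 240 fragments in the library labelled knockdown, 14.0% (12.4% to 15.7%), and was listed at 0 in control. An EDEM2 form of 2129 bases was given 104 fragments there, 17.6% (14.6% to 20.9%). It was likewise listed at 0 in control, where an assembled EDEM2 model of 1690 bases, absent from the other library, held 97.7 fragments. Such shares are divided by estimation between forms that overlap almost fully, and their intervals cover counting error only. Second forms of CANX, CRELD2, DERL1, SEL1L, SYVN1 and TXNDC5 were listed at 0 in both libraries.

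Other genes of the pathway were taken from 8 lists of 119 entries, of which 111 distinct genes were measured. Of these, 3 were higher and 2 lower by 1.2-fold or more, where 2.11% and 3.77% of all genes were, and their median log2 ratio was 0.01. The intervals of the 2 levels lay apart for 21 that were higher and 8 that were lower, in directions where 6.92% and 7.38% of all genes did. Over all genes 48.6% were above 0 and 51.4% below. Among 10 outputs of PERK and ATF4 the median was 0.08 on exons, with 6 above 0 and 4 below, and 0.01 summed over models. CHAC1, an enzyme that breaks down glutathione and is a known ATF4 target, stood at 15.1 FPKM in the control library and 18.7 in the one labelled knockdown, a log2 ratio of 0.29. DDIT3, which encodes CHOP, read 8.76 and 6.15 FPKM on exons, but its own models were listed at 0 in both libraries and its exons share bases with MARS1. The glycan quality control list had 2 of 10 genes above 0 and 8 below, with a median of -0.05. The members farthest from 0 were PRKCSH, the beta subunit of glucosidase II, at 119 and 99.0 FPKM (log2 ratio -0.26), and the cargo lectin LMAN2 at 97.9 and 89.0 (-0.14).

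In the translocon and signal peptidase list 11 of 15 genes were above 0 and 4 below. SEC11C, a catalytic subunit of signal peptidase, stood at 68.1 and 83.7 FPKM (log2 ratio 0.29), and SPCS2, another subunit, at 3.67 and 3.09 (-0.19). Of 7 measured oligosaccharyltransferase genes, which attach sugars to nascent chains, 6 were above 0, led by STT3B at 92.9 and 101 FPKM (0.12) and RPN2 at 153 and 162 (0.08). Other ERAD genes were divided, 8 above 0 and 8 below, with UBE2J1, a ubiquitin-conjugating enzyme of the ER, at 23.8 and 27.0 FPKM (0.17 on exons but -0.19 summed over models) and UBE2G2, another, at 42.7 and 38.7 (-0.14). Of 12 measured regulators 8 were above 0 and 4 below, with BBC3, a BCL2 family gene, at 13.9 and 12.2 FPKM (-0.17 on exons but 0.46 summed over models) and NFYA, a subunit of the factor that binds CCAAT, at 15.3 and 16.7 (0.12).

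Among other folding genes 13 of 27 were above 0 and 14 below, and among KDEL receptors and carriers 8 of 15 were above 0 and 7 below. These lists held the 2 of the 111 genes that passed 2-fold, and each had own models listed at 0 in at least 1 library. SDF2, the paralog of SDF2L1, read 3.18 and 24.4 FPKM, but its own models were listed at 0 in the control library and held 748 fragments in the one labelled knockdown. KDELR3, a retrieval receptor for ER proteins, read 6.29 and 0.0956 FPKM, with its own models listed at 0 in both libraries, and its exons share bases with DDX17. In the same lists FKBP7, a prolyl isomerase, stood at 2.31 and 1.77 FPKM (-0.26) and SEC23B, a coat protein of vesicles that leave the ER, at 54.5 and 61.0 (0.16).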

How the data were processed

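Poly(A) RNA of 1 control library and 1 library labelled USP49 knockdown was used, each deposited as a transcript assembly on hg18. TopHat with Bowtie, SAMtools, Picard, bedtools and Cufflinks are named, without versions, in the submitters' processing notes. Per the values in the files, the authors' deposited FPKM carry no depth term and follow fragments divided by 2 × (length − 47 bases). Fragment numbers were recovered from this relation. Unspliced assembled models took a correction of their own, or the number given by the deposited interval. In loci with 1 model, numbers read from the deposited intervals were whole within 0.02 for 93.5% (control) and 93.2%. With unspliced assembled models left out, the relation gave nearly the same number as the interval for 89.6% (control) and 89.5% of such loci. They were spread evenly over each model, summed on RefSeq exons from models of either strand and scaled to library totals. Counts cover genes of 300 or more exonic bases whose 2 levels averaged 1 FPKM or more. The log2 ratio used a pseudocount of 1 FPKM, which understates changes of low genes. Level intervals are exact Poisson and ratio intervals exact conditional (Clopper-Pearson), at 95%.

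All 33 genes are named, with USP49 and the 2 most changed of each other list. The genes and lists were chosen with earlier results of these data known. Promoter windows came from RefSeq and the XBP1 stretch from GENCODE. On simulated fragments of the control library (12066 genes), 97.5% of 200 genes changed 1.5-fold passed 1.2-fold in the right direction. Of unchanged genes 1.32% passed 1.2-fold. The simulation used the same models on both sides, added counting noise only and changed only genes at 5 FPKM or more. It therefore does not cover the effect of assembling each library separately. Python 3.11.15, numpy 2.4.6, pandas 2.3.3 and scipy 1.17.1 were used, and 11 alternatives were tried.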

Additional observations from a re-analysis of the deposited data

How the results depend on the processing

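Summing FPKM over models in place of exon density took the genes past 1.2-fold from 0 to 8, those with intervals apart from 5 to 14, CANX to -0.33 and USP49 to -0.88 on the log2 scale. Leaving out the depth scaling moved the median of the 33 genes to 0.27, beside 0.26 for all genes, with 20 past 1.2-fold and 29 with intervals apart, and put CALR at 0.20 and P4HB at 0.15. In these values the ratio of library totals, 1.219, remains by construction. In the other 9 alternatives no gene passed 1.2-fold, and 3 genes lay apart higher and 2 lower. The median then ran from -0.0087 with models of the gene's strand only to 0.0172 with overlapping genes left out. The pseudocount, the centring and the minimum do not enter the intervals, so those settings do not test the count of intervals apart. A larger pseudocount or another minimum also could not take a gene past 1.2-fold. Depth limits ERN1 most, at 180 and 189 fragments. No paired analysis was possible because each group has 1 library. No replicate could be left out.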
